A study of Mus musculus with 8 samples.

Results

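Small RNAs of mouse embryonic fibroblasts (MEFs) were counted by TEsR, a target-enrichment method for small RNAs, and by standard TruSeq small RNA sequencing, and the contrast described here is the library method within 1 cell type. It takes 6 of the 8 libraries of the series, 4 by TEsR and 2 by TruSeq, chosen by cell type and method from the sample labels and column names and not by any measured value. In TEsR, linkers are ligated to both ends of the RNA, caps are removed, and the amplified product is hybridised to capture probes and read on a MiSeq, with no size selection. Ribosomal RNA had been depleted with Ribo-Zero before capture, and the TruSeq libraries were sequenced on a HiSeq. Which RNAs the capture probes target is not stated in the labels.

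The MEFs of all 6 libraries carried a conditional TRF2 allele (TRF2 is a telomere-capping protein) and a tamoxifen-activated Cre recombinase expressed from the Rosa26 locus. Induction means 0.6 µM 4-hydroxytamoxifen (4OHT) for 48 hours, which activates the recombinase. The labels call 2 TEsR samples induced, 2 TEsR samples uninduced and both TruSeq samples induced, whereas the deposited TruSeq table is named as a control; the sample titles are followed here. The TEsR columns carry the codes mm and pm and S1 and S2, which the labels do not explain, so the libraries are named MEFmmS1, MEFmmS2, MEFpmS1 and MEFpmS2, and induced and uninduced TEsR libraries could not be told apart. The TruSeq libraries are named by their indexes, ATCACG and CGATGT. Instrument, depth and the mix of induced and uninduced cells change together with the method and cannot be told apart from it. Separate cultures are not mentioned in the labels, and the spread that p-values rest on may be technical.

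Most of the counted RNAs belong to a few families. Small nucleolar RNAs (snoRNAs) are processed from introns of host genes. The C/D box kind, named for its conserved C and D motifs, guides 2′-O-methylation of ribosomal RNA, and the H/ACA box kind guides pseudouridylation. MicroRNAs (miRNAs) are cut from hairpin precursors and bind messenger RNAs through a short seed near their 5′ end, and small nuclear RNAs (snRNAs) form the spliceosome. The deposited rows are annotated genes, so an miRNA row is the hairpin locus and the length of a row is that of the gene on mm10, not that of a read.

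The RNAs that led the counts differed between the methods, and their sequences are shown because the results turn on them. The first 4 are C/D box snoRNAs that led the TEsR counts. The next 3 are among the 4 leading TruSeq rows, and the last is an H/ACA box snoRNA with almost no TEsR count. Capitals mark the C box letters TGATG and the D box letters CTGA, and in the last the letters ACA near the 3′ end. All are written 5′ to 3′ on the strand of the gene, from GENCODE transcripts on mm10.
Snord70, chr1:59691934-59692020, plus strand: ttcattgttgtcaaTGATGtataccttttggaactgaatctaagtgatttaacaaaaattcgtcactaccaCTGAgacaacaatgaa
Snord68, chr8:123103038-123103123, plus strand: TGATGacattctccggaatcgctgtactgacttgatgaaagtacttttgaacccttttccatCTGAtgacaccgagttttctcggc
Gm26293, chr1:59692509-59692592, plus strand: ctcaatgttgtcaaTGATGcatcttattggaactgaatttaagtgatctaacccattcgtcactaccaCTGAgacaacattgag
Gm25878, chr2:167063473-167063565, plus strand: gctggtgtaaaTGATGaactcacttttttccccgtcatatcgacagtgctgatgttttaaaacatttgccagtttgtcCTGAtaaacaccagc
Gm23212, chr1:161036682-161036741, plus strand: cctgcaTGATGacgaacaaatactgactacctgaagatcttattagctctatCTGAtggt
AC161199.1, chr15:80082847-80082954, minus strand: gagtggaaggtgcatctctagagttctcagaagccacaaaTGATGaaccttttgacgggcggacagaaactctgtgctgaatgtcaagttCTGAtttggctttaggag
Gm23246, chr19:8725594-8725660, plus strand: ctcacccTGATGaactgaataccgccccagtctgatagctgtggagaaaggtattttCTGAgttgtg
Snora16a, chr4:132309465-132309600, plus strand: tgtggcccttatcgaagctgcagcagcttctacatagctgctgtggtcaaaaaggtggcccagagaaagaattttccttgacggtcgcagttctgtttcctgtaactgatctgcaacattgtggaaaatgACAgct

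AC161199.1 is typed as miRNA in the annotation, which also names it Snord43, and its C box starts at base 41 of the row and its D box at base 91. Between the C box and the D box lie 52 bases in Snord70, 57 in Snord68, 49 in Gm26293 and 62 in Gm25878, against 41 in Gm23212 and 45 in AC161199.1 and in Gm23246. The outermost bases of the row pair without a break for 12 positions in Snord70 and in Gm26293 and for 8 in Gm25878, for 1 in Gm23246 and for 0 in Snord68 and Gm23212.

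The mature miRNAs of the rows discussed most are given as RefSeq lists them on GRCm38.p6, with the seed, bases 2 to 8, in capitals. The miR-106b and miR-17 sequences share the seed AAAGUGC, and the rows Mir106b and Mir17 were both higher in TEsR. The miR-20a-5p and miR-93-5p sequences have this seed too, and Mir20a was higher while Mir93 was not called. The miR-19a and miR-19b sequences share GUGCAAA, but Mir19a was higher and Mir19b-1 lower, as described further on.
miR-106b-5p: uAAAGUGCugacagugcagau
miR-17-5p: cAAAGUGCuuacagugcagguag
miR-19a-3p: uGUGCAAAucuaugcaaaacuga
miR-19b-3p: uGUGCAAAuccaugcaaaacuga
miR-29b-3p: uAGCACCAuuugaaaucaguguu
miR-21a-5p: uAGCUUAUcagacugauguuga
miR-140-3p: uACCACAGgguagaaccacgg

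The TEsR libraries held 3221641 to 3768668 counts and the TruSeq libraries 8961221 and 8442960. Within a method, log2 CPM (counts scaled to the library total) correlated across rows, which are not independent replicates, with Pearson's r of 0.965 to 0.979 for TEsR and 0.990 for TruSeq. Markers of fibroblasts were present: 24 of 26 fibroblast miRNA rows had counts, summing to 29800 to 147467 in the TEsR libraries and to 722 and 1066 in the TruSeq libraries. Only 14 had counts in all 4 TEsR libraries, and 22 in both TruSeq libraries. Mir21a and Mir29b-1 held most of the TEsR sums, with 61052 and 51547 of 120347 in MEFmmS1. Other members were near 0 by TEsR, such as Mir199a-2 with 1, 1, 0 and 2 counts and Mirlet7c-2 with none. Of 19 pluripotent-cell miRNA rows 2 had counts, at most 5 in a library, of 7 epithelial rows 6, at most 20, and of 5 muscle rows 1, at most 17, and TruSeq had none of these. The 5 blood and 6 neural miRNA rows were at 0 in all 6 libraries, and the endothelial Mir126a had 38 to 160 counts by TEsR and 2 and 4 by TruSeq. MEFmmS2 stood lowest among the TEsR libraries in its miRNA share, as given below.

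Most counts of either method lay on C/D box snoRNAs, but the rows that held them differed. In TEsR the 2 leading rows, Snord68 and Snord70, together held 79.6%, 83.1%, 76.2% and 78.9% of the counts of MEFmmS1, MEFmmS2, MEFpmS1 and MEFpmS2. In TruSeq the 2 leading rows, Gm23212 and AC161199.1, held 71.6% and 67.8%. TEsR was the more concentrated: 90% of its counts lay on 6, 4, 9 and 7 rows, against 19 and 22 rows in TruSeq.

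By annotated type, snoRNA rows took 95.0% ± 2.45 (SD, n = 4) of the TEsR counts and 74.5% ± 1.97 (SD, n = 2) of the TruSeq counts. Rows typed as miRNA took 5.68%, 1.67%, 7.55% and 4.96% in the TEsR libraries and 21.5% and 24.4% in TruSeq. That TruSeq share was almost all AC161199.1. With this row counted as snoRNA by its name, miRNA fell to 0.109% and 0.111% in TruSeq against 5.67%, 1.67%, 7.54% and 4.96% in TEsR, so the order of the methods turned, and snoRNA came to 97.3% ± 0.0556 (SD, n = 2) in TruSeq against 95.0% in TEsR. The values of snoRNA then overlapped between the methods, while those of miRNA did not. Rows typed as snRNA took 8.73e-04% ± 4.86e-04 (SD, n = 4) by TEsR and 0.685% ± 0.0567 (SD, n = 2) by TruSeq. The rRNA rows had 1 count in the 4 TEsR libraries together and 0.00215% ± 2.45e-04 (SD, n = 2) in TruSeq. Groups that do not overlap give a two-sided p of 0.133 in the exact permutation test of 4 against 2 libraries, which is the smallest it can give.

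The methods also differed by row length. Rows of 71 to 90 nt held 91.9% ± 1.06 (SD, n = 4) of the TEsR counts and 12.2% ± 0.256 (SD, n = 2) of the TruSeq counts. Rows of up to 70 nt held 2.16% ± 0.280 (SD, n = 4) and 62.4% ± 2.28 (SD, n = 2). Rows of 91 to 120 nt, which include AC161199.1, held 5.80% ± 0.888 (SD, n = 4) and 24.5% ± 2.08 (SD, n = 2), and rows over 150 nt 0.00442% ± 0.00209 (SD, n = 4) and 0.556% ± 0.388 (SD, n = 2). The count-weighted median row length was 86, 86, 86 and 87 nt in TEsR and 60 and 65 nt in TruSeq (exact permutation p = 0.133). Without the 4 leading rows it was 84, 84, 82 and 84 nt against 71 and 69 nt, still without overlap, and the share of rows of 91 to 120 nt turned to being 22.7 percentage points higher in TEsR. In the mouse embryonic stem (MES) cells of the series, also sequenced by TEsR, the median row length was 86 nt in both libraries, and Snord68 and Snord70 again led, together with 80.9% and 82.3% of the counts.

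**Figure D1:**
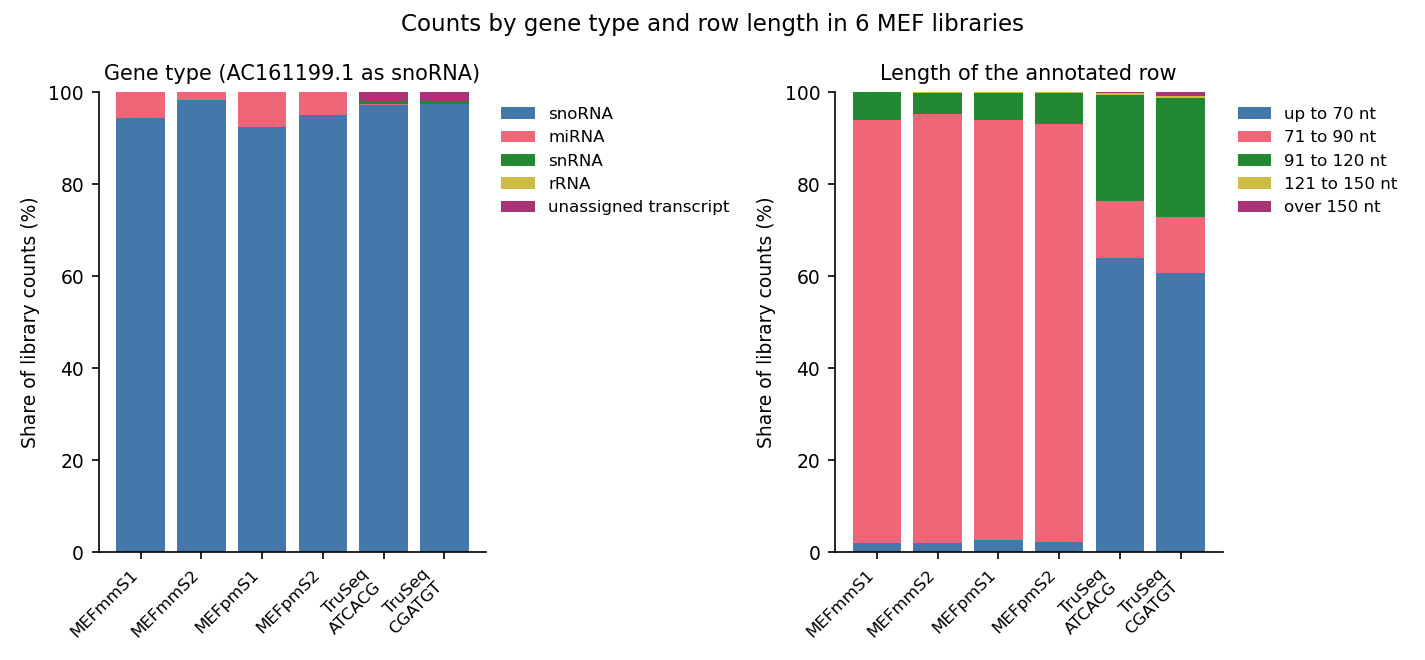
Share of library counts in percent (vertical axes) by annotated gene type, with AC161199.1 counted as snoRNA (left), and by length of the annotated row (right), for the 4 TEsR and 2 TruSeq libraries of MEFs; each bar is 1 library. Rows of 71 to 90 nt fill 90.9% to 93.3% of the TEsR bars and a mean of 12.2% of the TruSeq bars, while snoRNA fills nearly all of every bar.

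Row by row, 352 rows had enough counts to be tested with edgeR's quasi-likelihood test, of 809 with any count in the 6 libraries and 5518 in all. At a Benjamini-Hochberg adjusted p under 0.05, 114 rows (32.4% of those tested) were higher in TEsR and 196 (55.7%) were lower, so that 310 of the 352 rows were called in 1 direction or the other. The median log2 fold change over all tested rows was -2.42 with trimmed-mean scaling, -3.02 with library size alone and -0.57 with upper-quartile scaling, which gave 136 higher and 164 lower (45.3% of the calls higher, against 36.8%). Directions below are relative to the trimmed-mean scaling.

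The classes went different ways. Of 114 tested miRNA rows 91 were higher in TEsR and 11 lower, with a median log2 fold change of 5.82. Of 218 snoRNA rows 23 were higher and 166 lower (median -4.68), and of 18 snRNA rows none was higher and 17 were lower (median -9.48). Nearly all snRNA rows and H/ACA box snoRNA rows entered the test through their TruSeq counts, and many miRNA rows through their TEsR counts, as given below. The only tested rRNA row, Rn18s-rs5, and the only row of unassigned type, Gm22574 in an intron of Cox7c, were both lower. With rows at 0 in 1 method set to the limit that 3 counts per library allow, the medians of the CPM ratio were 4.56 for miRNA, -4.40 for snoRNA and -6.09 for snRNA on the log2 scale. Scaled on their own, 47 miRNA rows were higher and 30 lower of 124 tested, and 53 snoRNA rows were higher and 131 lower of 227. The miRNA fit kept AC161199.1, which held 1916415 of 1926196 counts of rows typed as miRNA in ATCACG and 2046848 of 2056210 in CGATGT. A fit of miRNA rows alone without this row was not run. In these fits the balance within a class differed from that with the classes scaled together.

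**Figure D2:**
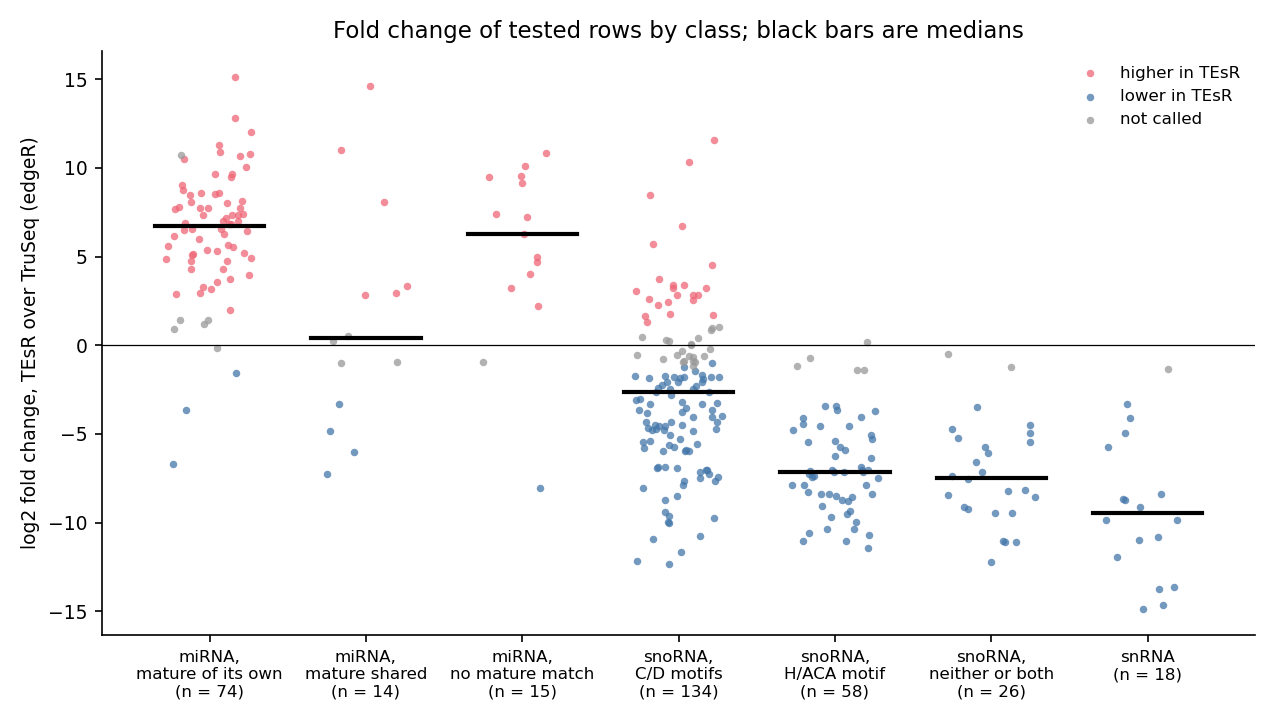
log2 fold change of TEsR over TruSeq from edgeR (vertical axis) for tested rows of each class, 1 point per row coloured by its call, with the median as a black bar; miRNA rows that overlap snoRNA or rRNA rows and AC161199.1 are left out. miRNA rows with a mature sequence of their own have a median of 6.71, C/D rows one of -2.63, H/ACA rows one of -7.15 and snRNA rows one of -9.48.

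Among C/D box snoRNAs, a few rows held most of the TEsR counts, and most rows were lower in TEsR. Rows were put in this group by sequence, with TGATG in the first 30 bases and CTGA in the last 30 on the strand of the gene, letters that overlap where they meet as CTGATG. Of 1507 snoRNA rows 361 met this rule, and 643 met the H/ACA rule of at least 100 nt with ACA in the last 7 bases. Of 134 tested C/D rows, 23 were higher in TEsR, 89 lower and 22 not called. Of 83 rows named Snord, 78 were tested, of which 10 were higher and 55 lower.

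Snord70, in an intron of Nop58, had 1428189, 1531606, 1314308 and 1388232 counts in MEFmmS1, MEFmmS2, MEFpmS1 and MEFpmS2, and 1663 and 1998 in the TruSeq libraries ATCACG and CGATGT. Every TEsR library was far above both TruSeq libraries, by 1885-fold in mean CPM (edgeR log2 fold change 11.56 ± 0.61 SE, adjusted p = 5.72e-09). Snord68, in Rpl13, a gene of a ribosomal protein, had 1539398, 1599409, 1380847 and 1153582 counts by TEsR and 12809 and 17969 by TruSeq. The groups again did not overlap, and mean CPM was 222.9-fold higher in TEsR (edgeR log2 fold change 8.48 ± 0.52 SE, adjusted p = 2.04e-08). Gm26293, a snoRNA row in Nop58, had 135211, 126429, 87309 and 75023 counts by TEsR and 278 and 362 by TruSeq, a 796.9-fold higher mean CPM. Gm25878, in Zfas1, a noncoding snoRNA host, was abundant by either method, with 146474, 150929, 126830 and 174070 counts by TEsR and 73550 and 66919 by TruSeq. Its mean CPM was 5.24-fold higher in TEsR (edgeR log2 fold change 3.06 ± 0.46 SE, adjusted p = 3.5e-05), without overlap of the groups.

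The leading TruSeq rows went the other way. Gm23212, a 60-nt row in Gas5, a noncoding gene that hosts many snoRNAs, had 4497999 and 3679940 counts by TruSeq and 877, 1214, 1246 and 922 by TEsR. It was 1569-fold lower in TEsR in mean CPM (edgeR log2 fold change -9.99 ± 0.43 SE, adjusted p = 1.77e-09), with no overlap. AC161199.1, in an intron of Rpl3, had 1916415 and 2046848 counts by TruSeq and 140, 86, 88 and 47 by TEsR, a 9141-fold lower mean CPM (edgeR log2 fold change -12.54 ± 0.50 SE, adjusted p = 1.12e-09). Gm26202, next in TruSeq by mean share, had 290684 and 329299 counts by TruSeq and 9392, 8247, 9343 and 6651 by TEsR, a 15.2-fold lower mean CPM without overlap. Gm23246, in Snhg1, a noncoding snoRNA host, had 220574 and 378779 counts by TruSeq and 17, 21, 126 and 38 by TEsR. Snord19, in Gnl3, a gene of a nucleolar protein, had 59468 and 55131 counts by TruSeq and 13, 4, 12 and 2 by TEsR. Gm23246 and Snord19 stood at no more than 126 counts in every TEsR library. Snord1a had 11497 and 6826 counts by TruSeq and 0, 1, 1 and 0 by TEsR, and the ratio of the pooled counts per total was 1 in 2077 to 61970 (95% exact interval for counting error only). Snord4a was among the 6 leading TruSeq rows and was not called: it had 150509 and 130701 counts by TruSeq and 12354, 18148, 35488 and 28634 by TEsR (edgeR log2 fold change -0.66 ± 0.43 SE, adjusted p = 0.164).

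snoRNAs of 1 host gene are cut from the same primary transcript, and rows of the same host were set side by side. Over all 218 tested snoRNA rows, 23 were higher in TEsR and 166 lower. All 4 rows in Nop58, which encodes a core protein of C/D box particles, were higher in TEsR. Their mean CPM in TEsR was 1885-fold higher for Snord70, 796.9-fold for Gm26293, 34.4-fold for Gm26287 and 3.91-fold for Snord11. Within the host the leading row also changed: Snord70 held 92.1% ± 1.51 (SD, n = 4) of the Nop58 counts in TEsR, while Snord11 led in TruSeq with 51.3% ± 0.962 (SD, n = 2).

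In Gas5, 2 rows were higher in TEsR, 7 lower and 1 was not called, a share of lower rows near that over all tested snoRNA rows. With snoRNA rows scaled alone, 5 of these 7 (Gm25789, Gm26224, Snord47, SNORD77 and Snord80) turned to log2 fold changes of 0.14 to 0.75, while Gm23212 and Gm22489 stayed lower. Mir5117, typed as snoRNA, had 12705, 9516, 10243 and 8841 counts by TEsR and 5747 and 5050 by TruSeq, and Gm22357 had 5664, 6214, 4334 and 4570 against 7071 and 5289. Relative to library size both were higher in every TEsR library than in either TruSeq library, by 4.67-fold and 2.05-fold in mean CPM. Gm23212 and Gm22489, the rows of 60 and 62 nt, were 1569-fold and 179.9-fold lower. The rows SNORD77 and Snord80 overlap and have the same counts in every library, so they are 1 measurement. Gas5 rows together held 0.715% ± 0.0939 (SD, n = 4) of the TEsR counts and 49.5% ± 4.75 (SD, n = 2) of the TruSeq counts.

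In Taf1d, which encodes a subunit of the RNA polymerase I selectivity factor, Gm24299 had 20412, 14365, 15234 and 9596 counts by TEsR and 5245 and 5230 by TruSeq and was called higher (edgeR log2 fold change 3.40 ± 0.44 SE, adjusted p = 1.07e-05). Gm24357 in the same gene had 10, 24, 26 and 28 counts by TEsR and 26835 and 16996 by TruSeq and was called lower (edgeR log2 fold change -8.02 ± 0.57 SE, adjusted p = 5.41e-08). The share of all Taf1d rows was 0.415% ± 0.104 (SD, n = 4) in TEsR and 0.356% ± 0.0650 (SD, n = 2) in TruSeq, and the leading snoRNAs of the host differed. In Nop56, Snord110 was higher and 4 rows were lower, and in Snhg1 none of 8 rows was higher and 6 were lower. These shares of lower rows are near that over all 218 tested snoRNA rows, of which 166 were lower. Of the Snhg1 rows that were not called, Gm24452 had a log2 fold change of -0.01 ± 0.36 SE and Gm22744 one of -0.62 ± 0.36 SE, against -10.73 ± 0.72 SE for Gm23246.

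**Figure D3:**
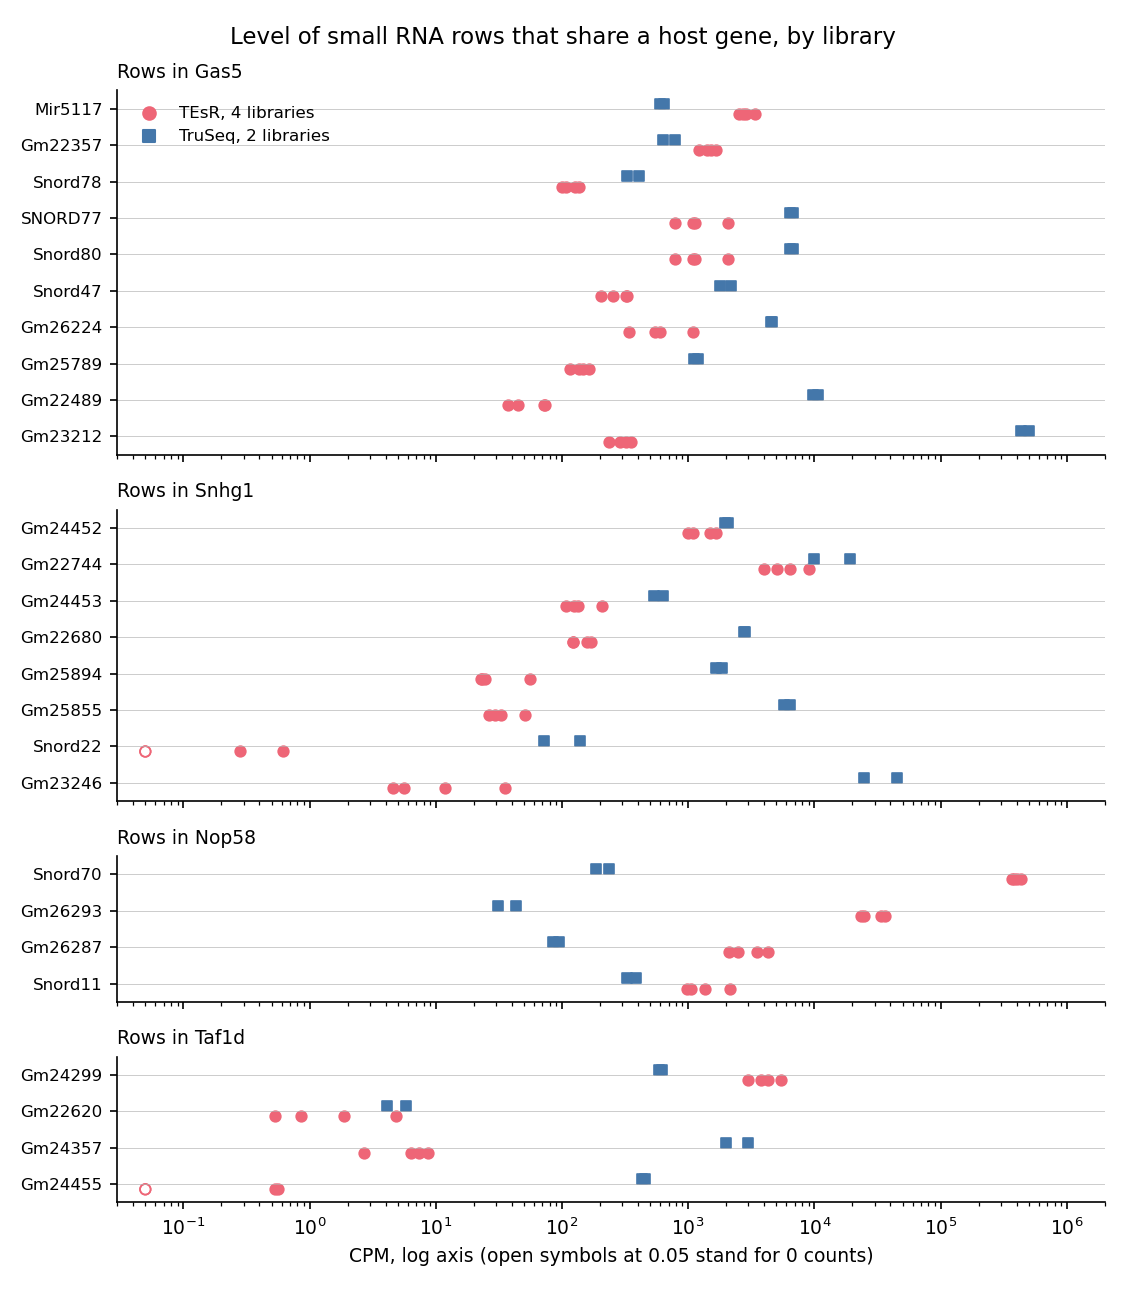
CPM on a log axis (horizontal) of the tested rows in Gas5, Snhg1, Nop58 and Taf1d, 1 point per library, with TEsR as circles and TruSeq as squares; open symbols stand for 0 counts. TEsR lies above TruSeq for all 4 Nop58 rows and below it for Gm23212 in Gas5 and Gm23246 in Snhg1, while Taf1d and Gas5 hold rows of either direction.

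Among C/D rows, length did not follow the fold change. Across the 134 tested rows Pearson's r between row length and log2 fold change was -0.042 and Spearman's rho 0.006. The 16 tested rows of 81 to 85 nt had the highest median of the length bins, 0.38, with 6 higher and 7 lower, and the other bins had medians from -4.18 to -2.14. The number of bases between the C and D boxes also did not follow it (r = -0.071), with a median of 54 bases in higher rows and 55 in lower ones. GC content did so weakly: r was -0.403 and rho -0.349, with a median GC of 40.4% in the 23 higher rows and 44.6% in the 89 lower ones. Without the 4 rows over 60% GC, r was -0.306 over 130 rows. Higher rows also had more unbroken outer base pairs, with a median of 4 against 1, but r was 0.272 and rho only 0.146. These correlations are across rows of the same libraries, which share depth and scaling, and are given without a test.

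**Figure D4:**
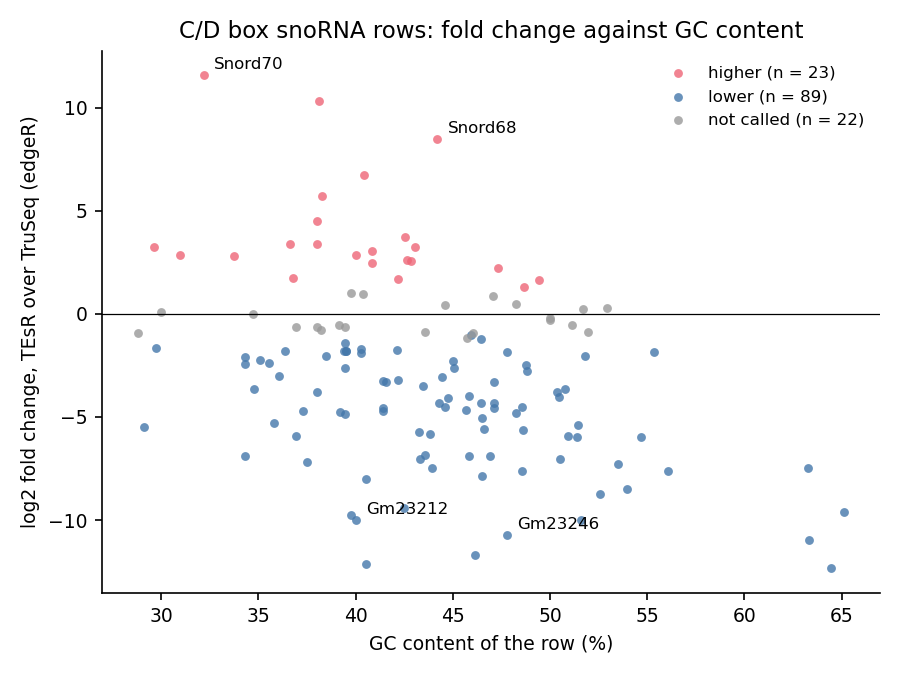
log2 fold change of TEsR over TruSeq (vertical axis) against the GC content of the row in percent (horizontal axis) for the 134 tested C/D box snoRNA rows, 1 point per row coloured by its call. Higher rows lie between 29.6% and 49.4% GC, and lower rows span 29.1% to 65.1%.

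H/ACA box snoRNAs were almost absent from TEsR. As deposited, 3, 3, 3 and 2 H/ACA rows reached 10 counts in the TEsR libraries, against 82 and 88 in TruSeq. Nearly all tested H/ACA rows therefore entered the test through their TruSeq counts, which largely set the direction of their calls in advance. Of 58 tested rows with the H/ACA motif none was higher, 53 were lower and 5 were not called, with a median log2 fold change of -7.15 (-4.64 on the log2 CPM ratio with rows at 0 set to the limit), and 26 of them had no count in any TEsR library. Together these rows held 0.00664% ± 0.00227 (SD, n = 4) of the TEsR counts and 0.228% ± 0.0115 (SD, n = 2) of the TruSeq counts. In the MES libraries by TEsR they held 0.956% ± 0.105 (SD, n = 2), given as a level only, and nearly all of it was 1 row: Snora21 had 27723 of 28682 and 22744 of 23600 H/ACA counts there. In MEFs Snora21 had 54, 80, 159 and 17 counts by TEsR and 674 and 501 by TruSeq and was not called (adjusted p = 0.094 by edgeR). Of 30 tested rows named Snora, 26 were lower, beside 166 of all 218 tested snoRNA rows. Snora16a, in Snhg12, had 2520 and 2256 counts by TruSeq and 1, 0, 0 and 0 by TEsR. Counts of rows with near-identical copies are uncertain, since the handling of reads that match several loci is not given. The 36 rows without a copy of at most 10% differing bases among the deposited rows gave 33 lower and none higher (median -7.13), and the 22 with one gave 20 lower and none higher. Since nearly all of these rows entered the test through TruSeq, this split cannot show what part copies play.

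The U3, U8, U14 and U17 snoRNAs take part in cleavage of pre-ribosomal RNA. The list for this group, matched by name, had 10 tested rows, all lower in TEsR, but 3 of them, Snord33, Snord34 and Snord37, matched the name pattern only and are methylation guides. The other 7, of U8, U14 and U17, had a median log2 fold change of -6.07, and all 10 had one of -4.79. Among the 7, Snord14a, Snord14c, Snora73a and Snora73b had no more than 3 counts in any TEsR library, and Snord14d had 17, 2, 4 and 0. These rows entered the test through their TruSeq counts, which largely set the direction of their calls in advance. Over all 218 tested snoRNA rows 166 were lower, with a median of -4.68, so the list as a whole was near its class. U3, which the pattern missed and which was added after its values were seen, had 3600 and 23422 counts by TruSeq and 2, 1, 1 and 2 by TEsR and was called lower (edgeR log2 fold change -11.09 ± 0.80 SE, adjusted p = 5.45e-08). U3 too entered the test through its TruSeq counts. The row Rnu3a overlaps U3 and has the same counts, so they are 1 measurement. Snord118, the U8 RNA, had 2917 and 7543 counts by TruSeq and 23, 19, 22 and 16 by TEsR. Snord14c, a U14 RNA in Hspa8, had 1152 and 1662 by TruSeq and 3, 2, 0 and 1 by TEsR, and Snora73a, a U17 RNA in Snhg3, had 288 and 474 against 0, 0, 0 and 2. Snord14c and Snord118 each have 1 near-copy among the deposited rows. The groups did not overlap in these 3 rows. The scaRNAs, which guide modification of snRNAs, were lower too: Scarna9 by 14.6-fold and Scarna10 by 30.9-fold in mean CPM. Of 2 tested imprinted snoRNAs, Snord64 was lower and the other was not called.

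The snRNA rows were nearly unread by TEsR, and the rows named for U1 and U2 were nearly unread by TruSeq too. Rnu1a1 had 0 and 0 counts by TruSeq and 0, 0, 1 and 0 by TEsR. Rnu2-10 had 0 and 2 by TruSeq and 0 in every TEsR library. As deposited, 1, 1, 1 and 2 snRNA rows reached 10 counts in the TEsR libraries, against 19 and 20 in TruSeq. Nearly all tested snRNA rows therefore entered the test through TruSeq, which largely set the direction of their calls in advance. Gm25099, a 116-nt snRNA row, had 33665 and 35277 counts by TruSeq and 1, 0, 0 and 0 by TEsR. It alone held a mean of 0.397% of the TruSeq counts, of 0.685% on all snRNA rows. Rnu5g, a U5 RNA, had 5027 and 4279 by TruSeq and 0, 1, 0 and 0 by TEsR. These 2 rows have near-copies among the deposited rows. A split of the snRNA calls by near-copies cannot show what part copies play, since nearly all rows entered through TruSeq. Of 15 tested snRNA rows with a near-copy 14 were lower, and all 3 without one were lower: Rnu7, which acts in the 3′ end processing of histone messages, Rnu11, of the minor spliceosome, and Gm22710, in 2900060B14Rik. Rnu7 had 1919 and 2986 counts by TruSeq and 0, 0, 0 and 1 by TEsR, and Rnu11 had 306 and 594 against 0 in every TEsR library, at least 61.8-fold lower against a limit of 3 counts per library. Gm26316, the leading snRNA row in TEsR, was not called, with 5, 12, 9 and 24 counts by TEsR and 105 and 162 by TruSeq (adjusted p = 0.0936 by edgeR). Rn18s-rs5 had 71 and 130 counts by TruSeq and 0 in every TEsR library, at least 13.8-fold lower, and Ribo-Zero depletion is described for the TEsR samples.

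miRNA hairpins showed the opposite picture. Leaving out those that overlap a snoRNA or rRNA locus, 103 miRNA rows were tested: 84 were higher in TEsR, 8 were lower and 11 were not called, with a median log2 fold change of 6.28. Many of the higher rows had few TruSeq counts and entered the test through TEsR, which largely set the direction of their calls in advance. Lower rows such as Mir19b-1 and Mir199a-2 entered through TruSeq in the same way. As deposited, 99, 73, 104 and 85 miRNA rows clear of other classes reached 10 counts in the TEsR libraries, against 62 and 49 in TruSeq. The miRNA rows clear of other classes held 57230 to 261326 counts in a TEsR library and 5403 and 3366 in the TruSeq libraries, although the latter were deeper. MEFmmS2 had the fewest, 57230, and its values below are the lowest of the TEsR libraries in most of the rows named.

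Mir106b, in an intron of Mcm7, was the leading miRNA in TEsR by mean share, though Mir21a exceeded it in MEFmmS1 and Mir29b-1 in MEFpmS2, with 60837, 18526, 77721 and 40387 counts against 40 and 45 in TruSeq. Every TEsR library was above both TruSeq libraries by 2846-fold in mean CPM (adjusted p = 2.09e-08 by edgeR). Mir21a, a miRNA abundant in fibroblasts, had 61052, 17008, 69764 and 36842 counts by TEsR and 55 and 75 by TruSeq (edgeR log2 fold change 11.30 ± 0.74 SE, adjusted p = 2.94e-08). Mir29b-1, whose product represses collagen messages, had 51547, 10611, 68568 and 52797 by TEsR and 6 and 7 by TruSeq. Mir29b-2 yields the same mature miR-29b-3p from another chromosome and had 1249, 274, 3521 and 1521 by TEsR and 1 and 4 by TruSeq. Both miR-29b loci were thus higher in every TEsR library, and Mir29b-1 had the higher counts of the pair in each of them. Mir484 had 3860, 1062, 2603 and 2069 counts by TEsR and 1 in each TruSeq library, a ratio of pooled counts per total between 1621 and 48360 (95% exact interval for counting error only).

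Polycistronic miRNAs, which are cut from a shared transcript, did not move as a block. In Mir17hg, the host of the growth-promoting miR-17-92 cluster, Mir17, Mir18, Mir19a and Mir20a were called higher in TEsR, Mir19b-1 was called lower and Mir92-1 was not called. Mir19a had 2583, 998, 3914 and 2095 counts by TEsR and none by TruSeq, at least 1967-fold higher. Mir19b-1, which shares its seed, had 3, 2, 6 and 0 by TEsR and 859 and 391 by TruSeq (edgeR log2 fold change -6.03 ± 0.77 SE, adjusted p = 9.13e-06). Mir92-1 lies 35 bases beyond it and had nearly the same TruSeq counts, 859 and 389, and 161, 50, 100 and 52 by TEsR (edgeR log2 fold change -0.99 ± 0.56 SE, adjusted p = 0.11). In the Mcm7 cluster, Mir106b and Mir25 were called higher, while Mir93 had 43, 6, 46 and 21 counts by TEsR and 48 and 38 by TruSeq and overlapped between the methods (adjusted p = 0.128 by edgeR). Over the list of miR-17-92 and its paralogs, 6 of 9 tested rows were higher and 1 was lower. Of the 103 miRNA rows above, 84 were higher and 8 lower.

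Of 29 mesenchymal miRNA rows 23 were tested, and 21 were higher in TEsR, 1 was lower and 1 was not called, a share near that of all 103 miRNA rows above, of which 84 were higher. Mir221 had 3616, 1015, 3616 and 1319 counts by TEsR and 5 and 6 by TruSeq, and Mir214 had 1542, 260, 2810 and 1549 against 376 and 165, a 14.3-fold higher mean CPM. The lower one was Mir199a-2, with 0.268, 0.265, 0.0 and 0.621 CPM (1, 1, 0 and 2 counts) by TEsR and 15.96 and 10.07 CPM by TruSeq, a 45.1-fold lower mean CPM (edgeR log2 fold change -4.83 ± 0.83 SE, adjusted p = 1.14e-04). Of 6 tested p53-linked miRNA rows 5 were higher, which is also near the share over all miRNA rows, and Mir143 and Mir15a among them turned direction when miRNA rows were scaled alone, as given below. The higher ones included Mir34a, a direct p53 target, with 209, 95, 61 and 62 counts by TEsR and 3 and 5 by TruSeq. The let-7 family, which represses growth genes in differentiated cells, was divided: Mirlet7i and Mirlet7g were higher, Mirlet7a-1 and Mirlet7c-2 were lower and 2 rows were not called. Mirlet7i had 709, 233, 616 and 265 counts by TEsR and 43 and 66 by TruSeq, and Mirlet7a-1 had 2, 0, 0 and 1 against 28 and 31. Mirlet7a-1 and Mirlet7c-2 entered the test through TruSeq and Mirlet7g through TEsR, which largely set the direction of these calls in advance.

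Of the 8 lower miRNA rows, 4 gave a mature sequence that another locus also gives. Of 74 tested rows whose mature sequences are their own, 65 were higher and 3 lower (median log2 fold change 6.71). Of 14 whose mature sequence is shared with another locus, 6 were higher and 4 lower (median 0.38): the lower ones were Mir19b-1, Mir199a-2, Mirlet7a-1 and Mirlet7c-2. These 4 rows had no more than 6 counts in any TEsR library and entered the test through TruSeq, while many higher rows entered through TEsR. Their directions were thus largely set in advance, and these calls cannot be used to compare rows with shared and own sequences. Mir29b-1 and Mir29b-2 also share a mature sequence and were among the higher ones. The column names of the TEsR table carry the tag q10 and those of the TruSeq table do not; its meaning and the handling of reads that match several loci are not stated in the labels, and their part in these differences was not tested. Mir140, which has mature sequences of its own, was lower, with 75, 34, 136 and 37 counts by TEsR and 954 and 409 by TruSeq (edgeR log2 fold change -1.54 ± 0.56 SE, adjusted p = 0.0197). When miRNA rows were scaled on their own, with AC161199.1 among them, Mir143 turned from a log2 fold change of 3.24 to -1.39 and Mir15a from 3.99 to -0.64.

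**Figure D5:**
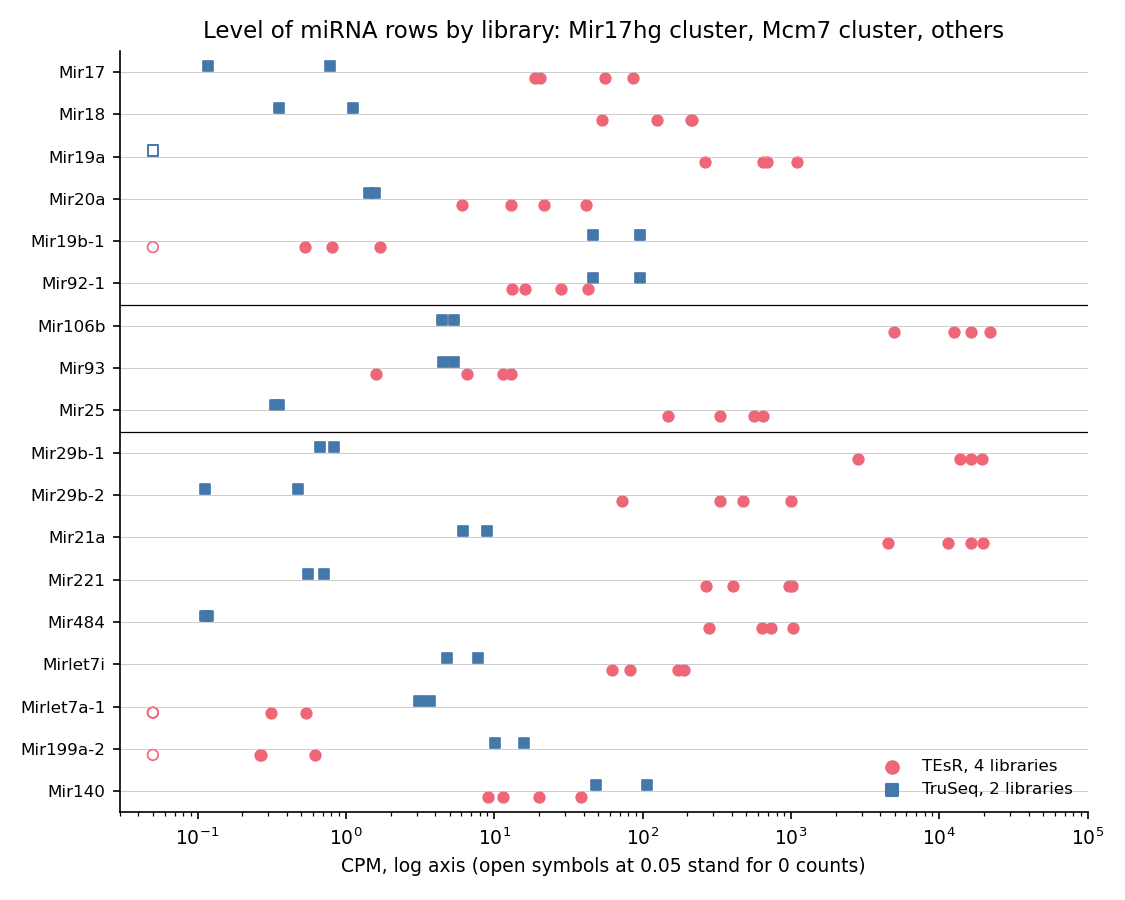
CPM on a log axis (horizontal) of 18 miRNA rows, 1 point per library, with TEsR as circles and TruSeq as squares; lines divide the Mir17hg cluster, the Mcm7 cluster and other rows, and open symbols stand for 0 counts. TEsR lies above TruSeq for Mir19a, Mir106b and Mir29b-1 and below it for Mir19b-1, Mirlet7a-1, Mir199a-2 and Mir140, and the methods overlap for Mir93.

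The 2 methods detected overlapping but unequal sets. At 10 or more counts after thinning each library to 3221641 counts, TEsR libraries held 217.2 ± 13.7 rows (SD, n = 4) and TruSeq libraries 280.5 ± 0.707 (SD, n = 2; exact permutation p = 0.133). The balance depended on class: miRNA rows clear of other classes came to 99, 72, 100 and 85 by TEsR and 25 in each TruSeq library. At 1 count or more after thinning these miRNA rows came to 172.8 ± 20.5 (SD, n = 4) and 150.5 ± 17.7 (SD, n = 2), with overlap, and as deposited to 185, 147, 196 and 173 by TEsR and 211 and 189 by TruSeq, so this difference depends on the minimum. At 10 or more counts after thinning, C/D rows came to 107.8 ± 0.500 (SD, n = 4) against 137.5 ± 7.78 (SD, n = 2), and H/ACA rows to 3, 3, 3 and 2 against 58 and 65. As deposited, 188 rows had at least 10 counts in all 4 TEsR libraries and 316 in both TruSeq libraries. The 136 rows in common were 72.3% of the TEsR rows and 43.0% of the TruSeq rows. All 102 C/D rows of TEsR were also in TruSeq, where they made up 76.7% of the C/D rows. Only 20 miRNA rows were shared, 28.99% of those of TEsR and 46.5% of those of TruSeq.

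Seen by 1 method alone, with more than 3 counts in each of its libraries and none in the other's, were 13 rows for TEsR and 85 for TruSeq. These numbers were taken as deposited, without thinning, and the TruSeq libraries were deeper. A row also had to pass the minimum in every library of its method, and TEsR had more libraries than TruSeq. The part of depth and of library number in this imbalance was not tested. All 13 were miRNAs, among them Mir19a, Mir362 with 146, 74, 202 and 88 counts, and Mir350 with 144, 72, 142 and 98. Against the limit of 3 counts per library, Mir362 was at least 103.8-fold and Mir350 at least 92.95-fold higher in TEsR. The 85 were 60 snoRNAs, 11 miRNAs, 9 snRNAs and 5 rRNAs. They included Snord88c, with 1533 and 916 counts by TruSeq and at least 165.4-fold lower in TEsR, and Mir351, with 75 and 53. A count of 0 limits a share to 3 counts of the library total, and such limits cover counting error only, since no molecular identifiers are described.

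Rows that overlap only in part can be called in opposite directions. Snord33, at chr7:45126864-45126947, and mmu-mir-5121, at chr7:45126918-45126991, overlap in part in Rpl13a, a gene of a ribosomal protein. In TEsR their counts were nearly the same, 395, 547, 525 and 111 for Snord33 and 387, 546, 516 and 110 for mmu-mir-5121. In TruSeq Snord33 had 12261 and 7361 counts and mmu-mir-5121 had 299 and 267, so that Snord33 was called lower in TEsR (edgeR log2 fold change -2.80 ± 0.53 SE, adjusted p = 2.59e-04) and mmu-mir-5121 higher (2.33 ± 0.63 SE, adjusted p = 0.00334). The leading miRNA rows of TruSeq below AC161199.1, mmu-mir-3535 in Ncl and mmu-mir-677 in Atp5b, also overlap rows typed as snoRNA and cannot be assigned to miRNA.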

How the data were processed

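The authors deposited raw counts, whole numbers for each of 5518 annotated small RNAs, in 2 tables with the same rows. The tools named in the submitters' processing notes are bedtools 2.25.0, SAMtools 1.2.1, BWA 0.7.12 and cutadapt, and the build is mm10. Settings, strand use and the handling of multi-mapped reads are not stated there. Columns were matched to groups by name and rows by Ensembl identifier, and gene type, strand and host came from GENCODE vM21, which held 5453 rows, 5445 of them at the same coordinates (the 65 others had 0 counts). Rows that overlap could be counted for each name: 30 of 45 such pairs were identical in every library. Of the miRNA rows, 958 were matched to RefSeq mature sequences.

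Rows were tested with edgeR 4.0.16 in R 4.3.3 (quasi-likelihood, robust, trimmed-mean scaling, filterByExpr with a minimum count of 10), 4 against 2 libraries, with Benjamini-Hochberg adjustment at 0.05; 310 rows had an unadjusted p under 0.05. The SE is the log2 fold change over the square root of F. CPM use library totals. Shares and detection used exact permutation tests. Libraries of 1 group differed by more than counting error (a chi-square of at least 284.8 for each degree of freedom), so each counts as 1. Tested on simulated data over 337 rows, the fit recovered 81.6% of changes of 4-fold and 100% of those of 16-fold, and called 7 of 146 rows left unchanged. The simulation used 1 fixed dispersion and changes of random sign. The calls in these data were lopsided, with 114 rows higher and 196 lower, and many changes were far larger. The simulation therefore does not show how often the scaling gives false calls here. Alternatives were other scalings, DESeq2 1.42.0, no filter, left-out libraries, libraries by code, duplicates counted once, classes alone and MES libraries in the fit.

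The members and lists were chosen with earlier results of these data known. Named rows were the 6 leading rows of each method and the 3 leading of each class, the 10 largest non-overlapping changes in each direction with at least 10 CPM in the higher group, over all called rows and over those with more than 3 counts in every library, up to 5 called members of each list, rows seen by 1 method only, and rows of listed host genes. Other rows, such as Mir93, Mir92-1 and Mir140, complete a cluster or list, chosen with their values in view. The list for 7SK had no row. Not every row that the rule names is printed: some enter the counts only.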

Additional observations from a re-analysis of the deposited data

How the results depend on the processing

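Over all rows, the counts higher and lower in TEsR were 136 and 164 with upper-quartile scaling, 123 and 183 by DESeq2, 166 and 246 of 809 rows without the filter, and 96 to 116 and 187 to 202 with each library left out in turn. With library size alone 109 were higher. With the TEsR libraries coded mm alone 105 and with those coded pm alone 109 were higher (both chosen after seeing the data). The counts were 107 and 189 with duplicates counted once, and 118 and 204 with the MES libraries in the fit. Without the filter, 142 miRNA rows were higher and 20 lower. With miRNA rows scaled alone, AC161199.1 among them, 47 were higher and 30 lower. snoRNA rows higher in TEsR numbered 39 with upper-quartile scaling and 53 with snoRNA rows scaled alone. The cause of these changes was not tested.

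Of the values of 149 named rows, 18 turned direction. With upper-quartile scaling Gm24453 came to 0.40, SNORD77 and Snord80 to 0.01, Snord58b to 0.04 and Snord83b to 0.00 on the log2 scale. With snoRNA rows alone Gm24453 came to 1.12, Gm25789 to 0.14, Gm26224 to 0.29, SNORD77 and Snord80 to 0.75, Snord32a to 0.46, Snord47 to 0.32, Snord58b to 0.73 and Snord83b to 0.65. With miRNA rows alone Mir143 came to -1.39, Mir15a to -0.64, mmu-mir-3535 to -1.71 and mmu-mir-5121 to -2.08.

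Without the 4 leading rows, the TEsR minus TruSeq differences in share were 22.9 percentage points for miRNA, -14.2 for snoRNA and -2.27 for snRNA, and -40.9, 20.7, 22.7, -0.679 and -1.78 for the length bins from the shortest to the longest. With AC161199.1 as snoRNA they were 4.85 for miRNA and -2.24 for snoRNA. TEsR had 63.2 fewer rows detected than TruSeq: the difference was -63.2 after thinning, -134 at 1 count, -127 as deposited and -44.2 without the 4 leading rows. No paired analysis was possible because the TruSeq columns carry no replicate number. The fit with induced TEsR libraries only was not run, since the column names do not show induction. With 2 TruSeq libraries, exact tests cannot go below 0.133.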
